A study of Homo sapiens with 10 samples.

Results

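The kinesin genes are the superfamily of motor proteins that use ATP to walk along microtubules or to take them apart. Members were chosen by symbol, as every gene entry named KIF followed by a number and an optional letter, together with KIFC1, KIFC2 and KIFC3. This gave 42 of the 30357 named genes. Within them 5 genes known for mitosis (KIF11, KIF20A, KIF23, KIF4A and KIF2C) were set against 5 known for transport in axons (KIF1A, KIF5A, KIF5C, KIF3C and KIF21A). Bulk RNA-seq came from human sensory neuron cultures made from RUES2, an established embryonic stem cell line, in which the tdTomato reporter gene had been edited into AVIL, the gene of the sensory neuron protein advillin. All 10 libraries carried this edit and came from cultures matured for 60 days. By their labels the groups differed in the differentiation protocol alone, and the labels do not say whether batches or dates were matched. The protocols were meant to bias neurons toward a nociceptor (4 libraries), a low threshold mechanoreceptor (3 libraries) or a proprioceptor phenotype (3 libraries). The titles name the libraries biological replicates without saying whether they were separate differentiations, so a p-value here sets a difference against library spread that could be partly technical.

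A kinesin has a motor domain that binds microtubules and a tail that binds cargo, another microtubule or a partner protein. In dividing cells, kinesins push spindle poles apart, move and align chromosomes, shorten microtubule ends and organise the midzone where the cell is cut. Neurons have left the cell cycle, and their long axons depend on other kinesins that carry synaptic vesicle precursors, mitochondria, neurofilaments and signalling endosomes outward from the cell body, while dynein carries cargo back.

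The named genes held between 27891186 and 44541262 estimated counts per library, of which the kinesins held between 55764 and 137257. Neuronal genes were high in every library, and the summed TPM (a level corrected for transcript length and scaled to the same total in each library) of 12 sensory neuron genes ran from 723 to 2663. ISL1 and PRPH were at or above 104 TPM throughout, while AVIL itself stayed between 1.17 and 3.55 TPM. Markers of other cells differed widely between libraries of the same protocol, and their values stand beside the mitotic kinesins below. In bulk RNA, fewer cells of a type and less RNA per cell cannot be told apart.

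Transport kinesins made up most of the kinesin RNA. The 15 genes of vesicle and axonal transport held between 73.8% and 88.6% of the summed kinesin TPM of a library, and the 14 genes of the spindle and division held between 1.84% and 9.41%. KIF1A, the motor of synaptic vesicle precursors, had the highest mean level of the family, 227 ± 103 TPM (SD over the 10 libraries). KIF21A, a kinesin-4 that restrains microtubule growth and is mutated in a congenital eye movement disorder, followed at 211 ± 56.4 TPM. KIF3A, a kinesin-2 motor, KIF5A and KIF5C, both heavy chains of conventional kinesin found mainly in neurons, had means of 136 ± 54.9, 135 ± 78.04 and 111 ± 60.3 TPM. The order of these 5 rested on means whose spread was larger than the gaps: the level of KIF1A alone ran from 91.0 to 428 TPM. Between 21 and 33 of the 42 members reached 1 TPM in a library, with the fewest in proprioceptor library 1.

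The mitotic genes sat lower, at means between 1.49 ± 1.37 TPM for KIF4A and 2.83 ± 2.31 TPM for KIF23. Of the division genes, KIF22, a chromosome-arm motor, stood apart with a mean of 22.1 ± 3.62 TPM. The testis kinesin KIF2B had no count in any library, KIF4B, an intronless copy of KIF4A, had 28 counts in all 10 libraries together, and KIF25 never passed 4 counts. These 3 genes did not pass the filter on low counts, and 39 of the 42 members were tested among 16130 genes.

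The upstream sequences of the mitotic genes are shown because their cell-cycle expression is known to run through 2 short elements, the CCAAT box bound by NF-Y and the cell cycle gene homology region (CHR) bound by the DREAM and MuvB complexes. RefSeq promoter windows on GRCh38.p14, from 250 bases before to 50 after an annotated start, were found for 34 of the 42 members. The CHR was searched as TTTGAA and as TTCGAA, and the CCAAT box as CCAAT, each on both strands. Capitals mark them in the 150 bases before the start, written 5′ to 3′ on the gene's strand, and none of the capitalised elements overlapped. The 4 mitotic stretches lie at chr10:92592980-92593129, chr15:69414199-69414348, chrX:70289954-70290103 and chr5:138178962-138179111, all on the plus strand.
KIF11: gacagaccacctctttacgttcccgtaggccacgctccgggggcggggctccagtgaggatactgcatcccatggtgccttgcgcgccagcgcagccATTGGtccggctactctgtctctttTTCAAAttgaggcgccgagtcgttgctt
KIF23: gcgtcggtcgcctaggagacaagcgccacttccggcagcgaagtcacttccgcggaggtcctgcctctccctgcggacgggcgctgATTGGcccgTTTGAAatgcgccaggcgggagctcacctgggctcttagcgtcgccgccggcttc
KIF4A: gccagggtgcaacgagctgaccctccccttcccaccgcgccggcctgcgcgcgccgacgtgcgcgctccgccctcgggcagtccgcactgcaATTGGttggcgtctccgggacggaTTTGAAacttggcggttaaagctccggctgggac
KIF20A: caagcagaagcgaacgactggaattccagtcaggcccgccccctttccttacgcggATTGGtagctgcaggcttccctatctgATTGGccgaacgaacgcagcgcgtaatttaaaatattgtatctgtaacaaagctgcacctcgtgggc

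KIF11, KIF23 and KIF4A each held a CCAAT box a short way upstream of a CHR. In KIF11 the CCAAT box spanned -53 to -49 and the CHR -28 to -23, counted from the annotated start, and in KIF4A they spanned -58 to -54 and -34 to -29. In KIF23 they lay closer together, at -64 to -60 and -55 to -50. KIF20A held 2 CCAAT boxes, at -94 to -90 and -67 to -63, and no TTTGAA in its window, and KIF2C held neither motif. TTTGAA occurred in 15.2% of the 35116 RefSeq windows, and in 3 of the 5 mitotic genes and 10 of the 14 division genes. TTCGAA occurred in 1.45% of all windows, in none of the mitotic genes and in 1 of the 14 division genes, KIF22. CCAAT occurred in 34.6% of all windows, in 4 of the 5 mitotic genes and in 11 of the 14 division genes. Among the axonal genes, 4 of 5 had a window, none with TTTGAA and 1 with CCAAT, and among 12 transport genes with a window 1 held TTTGAA. A match is a run of letters and not a shown binding site.

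An axonal example without a CHR is KIF5C, whose stretch at chr2:148875077-148875226, on the plus strand, held the palindrome TGACGTCA, the cAMP response element, in capitals here at -63 to -56.
KIF5C: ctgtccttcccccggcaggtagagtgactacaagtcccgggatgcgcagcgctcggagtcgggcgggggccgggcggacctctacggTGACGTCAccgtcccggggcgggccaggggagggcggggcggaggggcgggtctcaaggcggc

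The same 8 letters occurred in 1.85% of all windows and in 2 of the 4 axonal genes with a window, or 2 of their 7 windows. The other was KIF1A, in only 1 of its RefSeq windows, at -197 to -190, which lies before the first base of a stretch of that length. KIF5C is also the axonal gene counted above with a CCAAT box, at -222 to -218 and so outside the stretch shown, and a second RefSeq window of KIF5C, at a start further along the gene, held neither element.

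The mitotic kinesins were high in 3 of the 4 nociceptor libraries and low in the fourth. KIF11, the kinesin-5 that slides spindle poles apart, read 6.75, 2.65, 2.89 and 0.746 TPM in nociceptor libraries 1 to 4, against 1.10, 0.565 and 1.32 TPM in the mechanoreceptor and 0.258, 2.32 and 0.688 TPM in the proprioceptor libraries. KIF20A, a kinesin-6 needed for cytokinesis, read 5.16, 6.07, 7.66 and 0.330 TPM in the nociceptor libraries, 0.139, 0.0873 and 0.934 TPM in the mechanoreceptor and 0.399, 3.48 and 0.184 TPM in the proprioceptor libraries. For both genes the groups overlapped through nociceptor library 4, and proprioceptor library 2 stood well above the others of its protocol.

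KIF23, the kinesin-6 of the centralspindlin complex, read 5.82, 5.67, 5.58 and 1.40 TPM under the nociceptor protocol, 1.66, 0.888 and 1.67 TPM under the mechanoreceptor and 0.586, 4.70 and 0.319 TPM under the proprioceptor protocol. KIF4A, a chromokinesin that sets the length of midzone microtubules, read 2.51, 2.91, 4.33 and 0.536 TPM, then 0.645, 0.396 and 0.952 TPM, then 0.226, 1.86 and 0.563 TPM in the same order. KIF2C, a kinesin-13 that depolymerises microtubules at centromeres, read 4.32, 5.67, 5.36 and 0.713 TPM, then 1.14, 0.475 and 1.69 TPM, then 0.423, 2.67 and 0.593 TPM. All 5 genes had the same division of libraries: nociceptor libraries 1 to 3 and proprioceptor library 2 were the 4 highest, and the others lay below them.

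**Figure D1:**
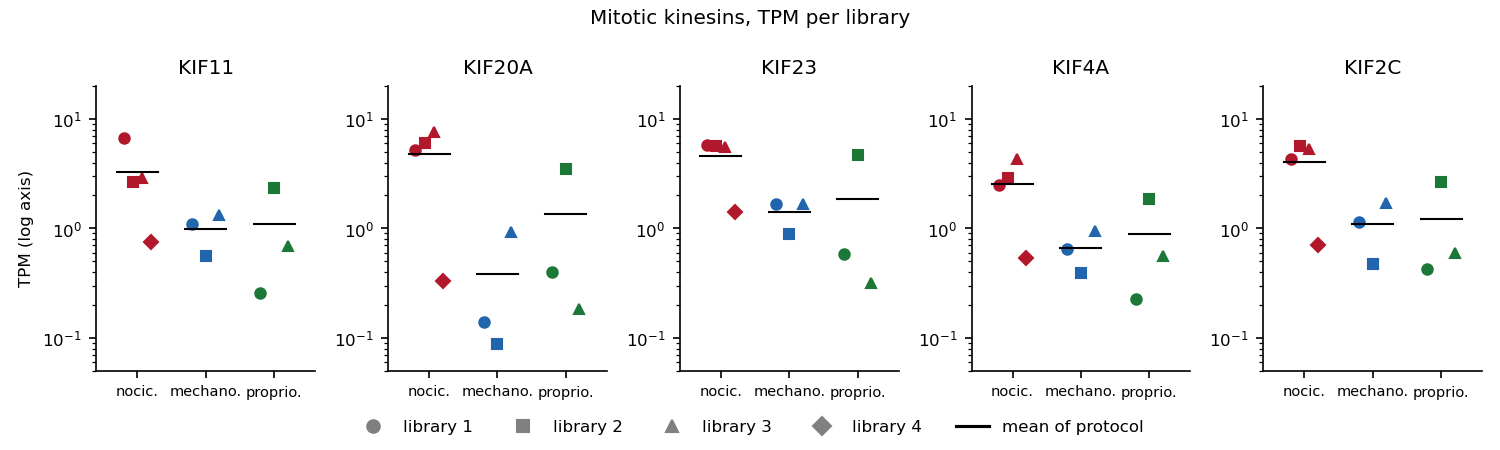
TPM (log axis) of the 5 mitotic kinesins, 1 point per library, with the protocol on the horizontal axis, the marker giving the library number and the bar the mean of the protocol. Nociceptor library 4 (diamond) sits with the low libraries for each gene, and proprioceptor library 2 (green square) sits above the other proprioceptor libraries.

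Fitted over all genes, the 5 mitotic kinesins were lower under the mechanoreceptor than the nociceptor protocol, by log2 fold changes of -1.79 ± 0.74 (SE) for KIF11, -3.76 ± 1.34 for KIF20A, -2.03 ± 0.89 for KIF23, -2.04 ± 0.69 for KIF4A and -2.37 ± 0.79 for KIF2C. None passed the test after adjustment: the adjusted p of edgeR's quasi-likelihood test was 0.598 for each. The median of the 5 was -2.04, beside 0.00 over all genes tested. No gene of the 16130 passed in this comparison (0.0% called). At an unadjusted p under 0.05 stood 8.18% of all genes and 13 of the 39 tested kinesins, with 4.59% of all genes and 11 kinesins lower, and 3.59% and 2 kinesins higher. All 5 mitotic genes were among the 11. DESeq2, run as an alternative on the same counts, called 130 genes (0.806%) and 2 kinesins, KIFC1 at -3.16 (adjusted p 0.0133) and KIF20A at -3.82 (adjusted p 0.0305).

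Under the proprioceptor protocol the same 5 genes were again below the nociceptor protocol, with fitted log2 fold changes from -1.53 ± 0.87 for KIF23 to -1.90 ± 1.21 for KIF20A and a median of -1.64, or -2.65 without proprioceptor library 2, beside 0.03 over all genes with every library. The edgeR adjusted p was between 0.665 and 0.666 for these genes. No gene passed (0.0% called). Unadjusted p under 0.05 was reached by 6.19% of all genes and by 7 kinesins, 5 being lower (3.14% of all genes), KIF5B, KIF4A, KIF18A, KIFC1 and KIF11, and 2 higher (3.05%), KIF9 and KIF3C. DESeq2 called 31 genes (0.192%) and no kinesin. Between the proprioceptor and mechanoreceptor protocols the mitotic median was 0.50, but -0.01 with limma on log2(TPM + 1), and the edgeR adjusted p was 1.0 for every kinesin named here. There 0 genes passed by edgeR or DESeq2, and an unadjusted edgeR p under 0.05 was reached by 1.49% of all genes and no kinesin. The edgeR F test for any difference among the 3 protocols called no gene, and an unadjusted p under 0.05 was that of 5.73% of all genes and 10 kinesins. DESeq2's matching test called 79 genes (0.49%) and no kinesin.

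The call counts turned on single libraries. Without nociceptor library 4, unadjusted p was under 0.05 for 19 kinesins in the mechanoreceptor and 18 in the proprioceptor comparison with the nociceptor protocol, beside 16.1% and 15.3% of all genes, and the adjusted count stayed at 0. In the mechanoreceptor comparison 6 kinesins were under 0.05 without mechanoreceptor library 1 (3.71% of all genes) and 6 without library 2 (2.94%), and 8 without nociceptor library 1 (7.0%). In the proprioceptor comparison 13 were under 0.05 without proprioceptor library 2 (16.3% of all genes). Fewer than the 7 of the full set were under 0.05 there without each of the other libraries apart from nociceptor library 4: 2, 1 and 2 without nociceptor libraries 1, 2 and 3 (3.83%, 3.33% and 3.04% of all genes), 2 and 1 without proprioceptor libraries 1 and 3 (4.95% and 3.63%), and 3, 5 and 6 without mechanoreceptor libraries 1, 2 and 3 (4.84%, 5.03% and 6.49%).

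Markers of proliferation, glia, mesenchyme and neural progenitors varied across the libraries together with the mitotic kinesins. Those of epithelium and multiciliated cells did not. The pan-neuronal and skeletal muscle sums ran the other way, lower in the libraries high in mitotic kinesins. The 10 proliferation markers summed to 307, 278, 292 and 87.9 TPM in the nociceptor libraries. They summed to 74.02, 65.9 and 84.6 TPM in the mechanoreceptor and 66.7, 162 and 59.9 TPM in the proprioceptor libraries. The summed TPM of the 5 mitotic kinesins came to 24.6, 23.0, 25.8 and 3.73 under the nociceptor protocol, 4.68, 2.41 and 6.57 under the mechanoreceptor protocol and 1.89, 15.0 and 2.35 under the proprioceptor protocol. The 8 Schwann and satellite glia genes summed to 4097, 2163, 4617 and 386 TPM in the nociceptor, 35.5, 17.5 and 1678 TPM in the mechanoreceptor and 116, 2057 and 66.2 TPM in the proprioceptor libraries. The libraries high in mitotic kinesins were high in glial genes, and mechanoreceptor library 3 was high in glial genes with 6.57 TPM of mitotic kinesins, the most of its protocol. The 10 fibroblast and mesenchyme genes summed to 1201, 1186, 3544 and 145 TPM in the nociceptor libraries. They summed to 16.1, 13.5 and 1102 TPM in the mechanoreceptor and 15.2, 1283 and 32.97 TPM in the proprioceptor libraries. None of the 10 was at 0 throughout. Mechanoreceptor library 3 was close to nociceptor library 2 in these genes, but held 6.57 against 23.0 TPM of mitotic kinesins. The 6 neural progenitor genes, nearly all of whose level was VIM, summed to between 281 and 2359 TPM, 65.8 and 714 TPM, and 82.8 and 914 TPM in the same order, while SOX1 and PAX6 stayed under 1 TPM. Of the 5 pluripotency genes found, POU5F1, NANOG and LIN28A stayed under 1 TPM in every library. DPPA4 read 5.01, 3.96, 5.21 and 0.700 TPM in the nociceptor libraries, 0.0392, 0.147 and 0.674 TPM in the mechanoreceptor and 0.240, 0.440 and 0.365 TPM in the proprioceptor libraries, and L1TD1 between 0.0865 and 3.20 TPM over the series. Between the mechanoreceptor and nociceptor protocols the fitted changes were -4.37 ± 1.16 for DPPA4 and -3.15 ± 0.86 for L1TD1 (edgeR adjusted p 0.598 for both), and DESeq2 called both, with adjusted p-values of 0.00175 and 0.00991. DESeq2 also called DPPA4 between the proprioceptor and nociceptor protocols (adjusted p 0.0476). It called the mesenchyme gene PRRX1 in both comparisons, with DESeq2 adjusted p-values of 1.26e-06 and 0.0370. The glial gene FABP7 was called between the mechanoreceptor and nociceptor protocols (DESeq2 adjusted p 0.00991). Of all genes, DESeq2 called 0.806% and 0.192% in these comparisons. The 5 genes summed to between 2.63 and 8.68 TPM in the nociceptor, 0.566 and 1.71 TPM in the mechanoreceptor and 0.495 and 2.71 TPM in the proprioceptor libraries. The 12 pan-neuronal genes summed to 6537, 6791, 5135 and 12176 TPM in the nociceptor libraries. They summed to 10444, 13293 and 9538 TPM in the mechanoreceptor and 15833, 9428 and 14005 TPM in the proprioceptor libraries. The libraries high in mitotic kinesins were the lowest in these genes, by a narrow margin for proprioceptor library 2. The 6 epithelium genes summed to 43.6, 153 and 76.2 TPM in nociceptor libraries 1 to 3 and 72.1 TPM in proprioceptor library 2. Elsewhere they summed to between 31.1 and 98.2 TPM. The 6 skeletal muscle genes summed to at most 5.78 TPM in the libraries high in mitotic kinesins and at least 5.81 TPM in the others. Of these 6 genes, 5 stayed under 1 TPM in every library. The 5 multiciliated cell genes ran from 6.60 TPM in nociceptor library 3 to 14.1 TPM in nociceptor library 1. The part of dividing and non-neuronal cells in the kinesin differences was not tested.

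**Figure D2:**
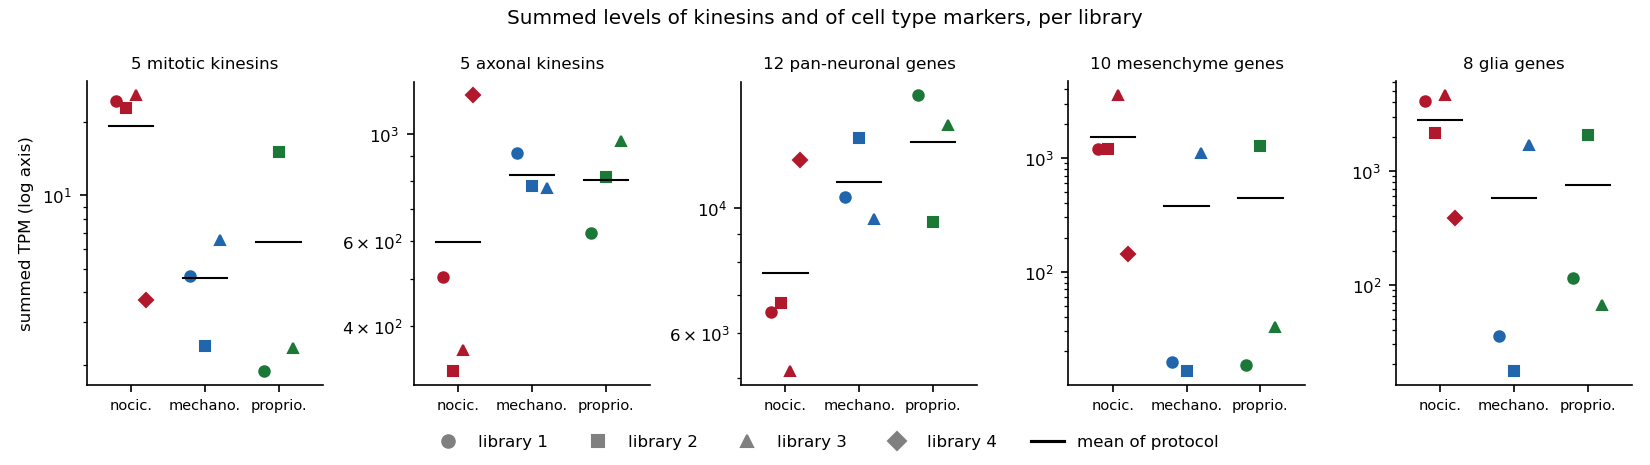
Summed TPM (log axes) per library of the 5 mitotic kinesins, the 5 axonal kinesins and 3 lists of cell type markers, by protocol, with library numbers as markers and the mean of the protocol as a bar. Nociceptor library 4 was at 3.73 TPM for the mitotic and 1202 TPM for the axonal kinesins, and proprioceptor library 2 was at 15.0 TPM for the mitotic kinesins and 2057 TPM for the glia genes.

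Of the remaining division kinesins, KIF22 was the 1 whose fitted changes were near 0 in both comparisons with the nociceptor protocol. Taken with the mitotic 5, all 12 tested genes of the class had a fitted change below 0 between the mechanoreceptor and nociceptor protocols, 11 of 12 between the proprioceptor and nociceptor protocols, and 12 of 12 above 0 between the proprioceptor and mechanoreceptor protocols. The last count turned on 1 library and on the scale, since 6 of 12 were above 0 without proprioceptor library 2 and 7 of 12 with limma on log2(TPM + 1). Of all genes tested, 49.9%, 47.8% and 46.3% had a fitted change below 0 in these comparisons, in the same order. KIFC1, a minus-end directed kinesin-14 that draws spindle poles together, read 2.45, 4.59, 6.84 and 1.33 TPM in the nociceptor and 0.478, 0.188 and 0.678 TPM in the mechanoreceptor libraries, with no overlap, and 0.455, 2.47 and 0.298 TPM in the proprioceptor libraries, which overlapped the nociceptor ones. Its edgeR change was -3.11 ± 0.91 against the nociceptor protocol for the mechanoreceptor and -1.93 ± 0.85 for the proprioceptor protocol.

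KIF15, a kinesin-12 that backs up KIF11 in the spindle, read 2.03, 1.08, 1.53 and 0.162 TPM in the nociceptor, 0.335, 0.352 and 0.601 TPM in the mechanoreceptor and 0.369, 1.44 and 1.42 TPM in the proprioceptor libraries. Its change was -2.37 ± 0.75 for the mechanoreceptor and -0.97 ± 0.70 for the proprioceptor protocol. KIF18B, a kinesin-8 that acts on the ends of astral microtubules, read 0.422, 0.571, 0.385 and 0.203 TPM in the nociceptor libraries and 0.0758, 0.103 and 0.116 TPM in the mechanoreceptor libraries. These groups did not overlap, although the counts were small, between 3 and 51 per library over the series. The proprioceptor libraries read 0.0302, 0.586 and 0.246 TPM, and the change from the mechanoreceptor protocol was 1.60 ± 0.76 (edgeR adjusted p 1.0), or 0.75 without proprioceptor library 2.

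KIF22 did not follow this division of libraries. It read 14.3, 24.7, 25.7 and 23.8 TPM in the nociceptor, 24.0, 25.0 and 20.9 TPM in the mechanoreceptor and 19.9, 24.3 and 18.7 TPM in the proprioceptor libraries, a range of 1.79-fold from lowest to highest. The matching range was 87.7-fold for KIF20A and 26.2-fold for KIF11. The fitted log2 fold change of KIF22 was -0.08 ± 0.33 and 0.10 ± 0.32 from the nociceptor to the mechanoreceptor and proprioceptor protocols.

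Within the nociceptor protocol, library 4 was the highest for all 5 axonal kinesins, and for KIF1A and KIF5C it was the highest of all 10 libraries. KIF1A read 91.0, 96.2, 148 and 428 TPM in the nociceptor, 227, 209.5 and 249 TPM in the mechanoreceptor and 209.0, 281 and 326 TPM in the proprioceptor libraries. KIF5A, whose mutations cause hereditary spastic paraplegia and which carries neurofilaments among other cargo, read 118, 33.9, 37.7 and 240.3 TPM in the nociceptor, 249, 142 and 125 TPM in the mechanoreceptor and 68.7, 127 and 214 TPM in the proprioceptor libraries. Both genes overlapped between every pair of protocols. The other 3 nociceptor libraries lay below all mechanoreceptor libraries for both genes and below all proprioceptor libraries for KIF1A.

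KIF5C read 77.7, 39.4, 45.2 and 245 TPM in the nociceptor, 98.6, 116 and 121 TPM in the mechanoreceptor and 74.0, 137 and 156 TPM in the proprioceptor libraries. KIF3C, the neuronal partner of KIF3A in kinesin-2, read 24.2, 16.5, 25.8 and 40.5 TPM in the nociceptor, 57.7, 57.6 and 50.02 TPM in the mechanoreceptor and 15.7, 54.5 and 69.2 TPM in the proprioceptor libraries. KIF21A read 194, 137, 99.8 and 248 TPM in the nociceptor, 279, 254 and 229 TPM in the mechanoreceptor and 258, 215 and 200.2 TPM in the proprioceptor libraries. Of the 5, KIF3C alone had nociceptor and mechanoreceptor libraries that did not overlap, and its proprioceptor library 1 was the lowest of all 10.

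**Figure D3:**
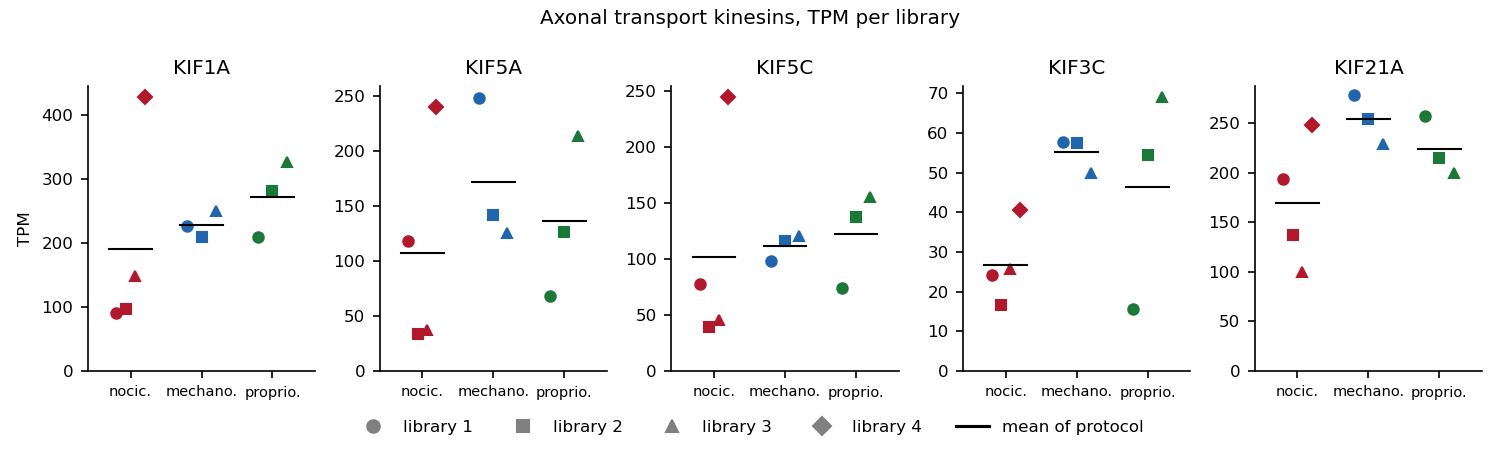
TPM of the 5 axonal transport kinesins, 1 point per library, by protocol, with the marker giving the library number and the bar the mean of the protocol. Nociceptor library 4 (diamond) is far above the other nociceptor libraries for KIF1A, KIF5A and KIF5C, while the mechanoreceptor libraries of KIF3C all lie at or above 50.02 TPM and the nociceptor ones at or below 40.5 TPM.

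None of these differences passed the test. From the nociceptor to the mechanoreceptor protocol the log2 fold changes were 0.31 ± 0.49 for KIF1A, 1.04 ± 0.55 for KIF5A, 0.32 ± 0.51 for KIF5C, 0.91 ± 0.34 for KIF3C and 0.51 ± 0.35 for KIF21A, with edgeR adjusted p-values from 0.598 to 0.866. The median of the 5 was 0.51, beside 0.00 over all genes. From the nociceptor to the proprioceptor protocol they ran from 0.48 ± 0.51 for KIF5C to 0.78 ± 0.55 for KIF5A, with a median of 0.62 and edgeR adjusted p-values from 0.665 to 0.757. These 2 comparisons share the nociceptor libraries, so their like signs are not separate evidence. Between the proprioceptor and mechanoreceptor protocols the axonal median was 0.09, with 3 genes above and 2 below 0, and -0.18 with limma on log2(TPM + 1). Nociceptor library 4 set the size of the changes: without it the median axonal change was 1.02 for the mechanoreceptor and 1.14 for the proprioceptor protocol.

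KIF5B, the conventional kinesin heavy chain found in most cell types, had fitted changes of the opposite sign to those of KIF5A and KIF5C. It read 104, 62.2, 62.7 and 92.4 TPM in the nociceptor, 99.4, 51.7 and 57.7 TPM in the mechanoreceptor and 30.6, 55.8 and 42.9 TPM in the proprioceptor libraries. All 3 proprioceptor libraries lay below all 4 nociceptor libraries, and the log2 fold change was -0.74 ± 0.29 (edgeR adjusted p 0.665), while that of the mechanoreceptor protocol was -0.34 ± 0.29. As a share of the summed TPM of KIF5A, KIF5B and KIF5C, KIF5B made up 34.7%, 45.9%, 43.1% and 16.0% under the nociceptor, 22.3%, 16.7% and 19.0% under the mechanoreceptor and 17.6%, 17.4% and 10.4% under the proprioceptor protocol. Nociceptor libraries 1 to 3 were above every other library, and nociceptor library 4 lay among the rest. KIF5A was the larger neuronal chain in mechanoreceptor library 1, at 55.7%, and KIF5C slightly exceeded KIF5A in 5 libraries.

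**Figure D4:**
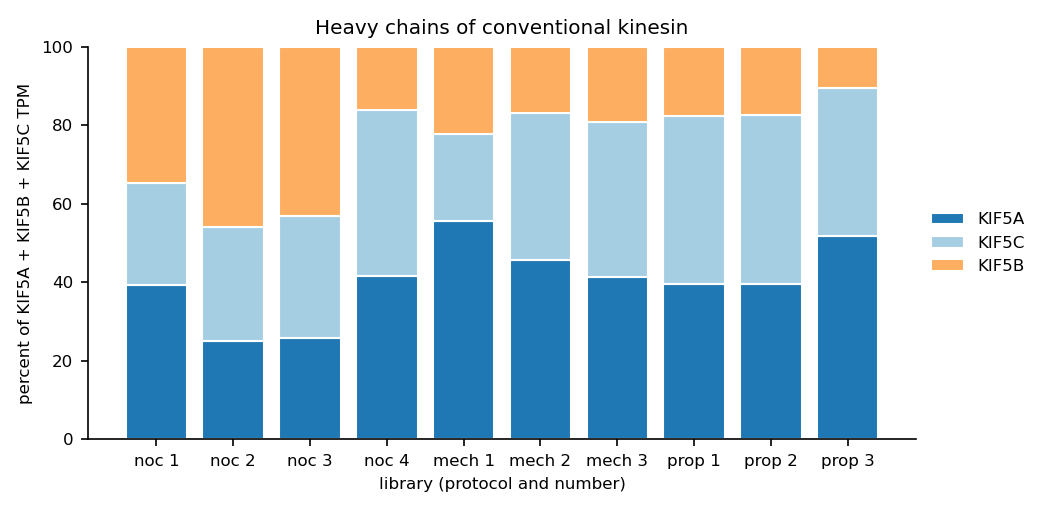
Share of the summed KIF5A, KIF5B and KIF5C TPM held by each gene in every library, as stacked bars that add to 100 percent, with libraries named by protocol and number. KIF5B holds 34.7% to 45.9% in nociceptor libraries 1 to 3 and 10.4% to 22.3% in the other 7.

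Counts of members whose libraries did not overlap between protocols were compared with the background. Between the mechanoreceptor and nociceptor protocols 4 of the 39 tested kinesins were lower without overlap, KIF13A, KIF14, KIF18B and KIFC1, beside 1.84% of all genes. KIF17 and KIF3C were higher without overlap, beside 8.05% of all genes. Between the proprioceptor and nociceptor protocols KIF5B was the 1 kinesin lower without overlap, beside 1.45% of all genes, and no kinesin was higher, beside 1.49%. Between the proprioceptor and mechanoreceptor protocols KIF16B was lower without overlap, beside 5.02% of all genes, and no kinesin was higher, beside 0.868%. None of the 5 mitotic genes was in any of these counts.

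KIF17, a homodimeric kinesin-2 of dendrites and cilia, read 0.831, 1.32, 2.81 and 2.98 TPM in the nociceptor and 4.99, 3.14 and 4.19 TPM in the mechanoreceptor libraries, a change of 1.08 ± 0.45. KIF13A, a kinesin-3 of endosomes and mannose-6-phosphate receptors, read 7.17, 8.16, 8.84 and 6.98 TPM against 4.92, 2.12 and 4.51 TPM, a change of -0.83 ± 0.48. KIF16B, which moves early endosomes, read 20.9, 8.71, 10.4 and 5.76 TPM in the nociceptor, 19.99, 11.9 and 12.1 TPM in the mechanoreceptor and 2.89, 11.7 and 5.03 TPM in the proprioceptor libraries. The proprioceptor libraries of KIF16B lay below the mechanoreceptor ones by a margin of 11.7 against 11.9 TPM, and the change was -1.01 ± 0.51 (edgeR adjusted p 1.0), or -1.71 without proprioceptor library 2.

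Over the class of vesicle and axonal transport, all 15 genes were tested and none passed. In the mechanoreceptor comparison with the nociceptor protocol 11 had a fitted change above 0, and in the proprioceptor comparison 10. Below 0 in both were KIF13B, KIF13A, KIF1C and KIF5B, and KIF16B also in the second, beside 49.9% and 47.8% of all genes below 0. KIF3A read from 65.6 to 212 TPM and KIF1B, which carries synaptic vesicle precursors and mitochondria, from 18.0 to 63.2 TPM, and their fitted changes were 0.24 ± 0.40 and 0.18 ± 0.44 in the first comparison and 0.51 ± 0.40 and 0.29 ± 0.44 in the second. Within the KIF1 genes, KIF1A held between 68.1% and 91.8% of the summed TPM, and within the KIF21 genes KIF21A held between 94.4% and 99.3%.

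**Figure D5:**
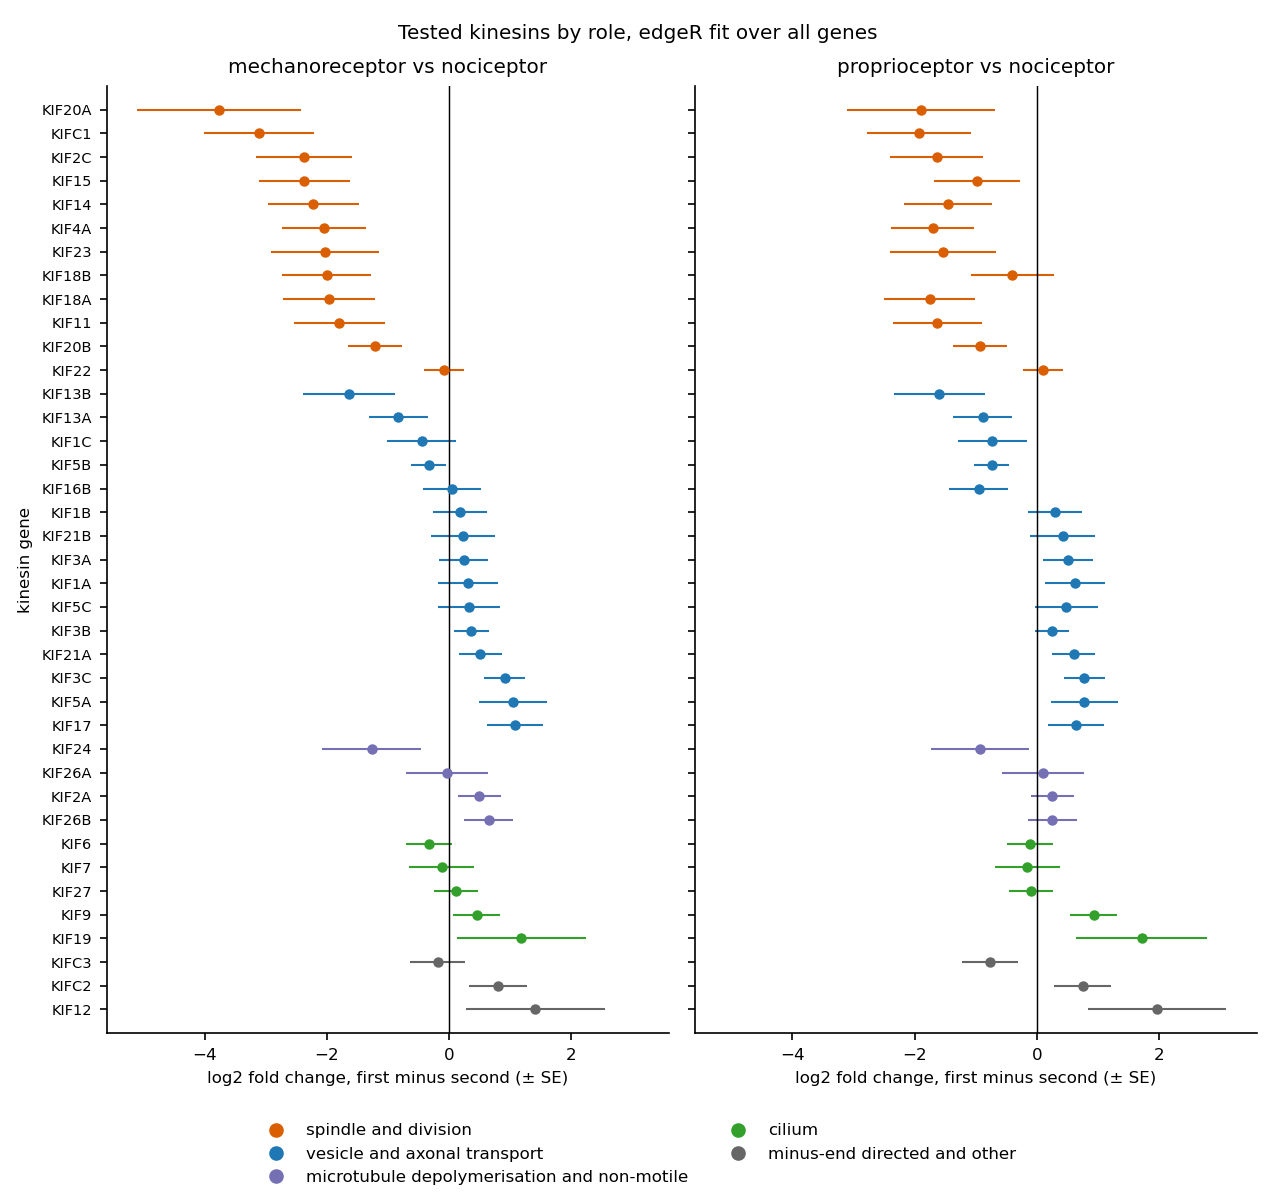
Log2 fold change with its standard error (horizontal axis) of the 39 tested kinesins (rows), grouped and coloured by role, for the mechanoreceptor (left) and proprioceptor (right) protocol against the nociceptor protocol, from edgeR fitted over all genes. The division genes lie to the left of 0 except KIF22, near 0 in both panels, and the transport genes spread on both sides of 0.

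The kinesin-13 KIF2A, which depolymerises microtubule ends and prunes axon branches, differed in level from its mitotic relative KIF2C. KIF2A read from 45.7 to 108 TPM in the nociceptor, 74.6 to 148 TPM in the mechanoreceptor and 44.2 to 107 TPM in the proprioceptor libraries, and its changes were 0.50 ± 0.36 and 0.25 ± 0.36. KIF2C made up between 0.55% and 11.04% of the summed TPM of both genes. Among the 5 cilium kinesins, KIF9, a kinesin-9 of motile cilia, was highest by gene level, at 18.1, 21.3, 16.5 and 24.2 TPM in the nociceptor, 25.3, 28.1 and 19.9 TPM in the mechanoreceptor and 44.7, 25.4 and 24.1 TPM in the proprioceptor libraries. Most of this level lay in short transcripts. Transcripts with at least 90% of the longest coding part averaged 1.21 TPM for KIF9, 4.89% of its gene level, and 1.64 TPM for KIF7. The gene-level change of KIF9 from the nociceptor to the proprioceptor protocol was 0.93 ± 0.38 (edgeR adjusted p 0.665), with proprioceptor library 1 the highest of all, and it was 0.31 without that library. KIFC3, a minus-end directed kinesin-14 of cell junctions and the Golgi, read between 7.84 TPM in proprioceptor library 1 and 39.0 TPM in nociceptor library 3, with fitted changes of -0.19 ± 0.45 and -0.77 ± 0.46.

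Partners of the kinesins were counted in lists. Of all genes tested, 49.9% and 47.8% had a change below 0 from the nociceptor to the mechanoreceptor and to the proprioceptor protocol. These comparisons share the nociceptor libraries, so like signs in them are not separate evidence. Of 26 kinesin light chains and cargo adaptors, 22 had a change above 0 from the nociceptor to the mechanoreceptor protocol, with a median of 0.57, and 21 from the nociceptor to the proprioceptor protocol, with a median of 0.47. The smallest p-values in the first were those of MADD, an adaptor of KIF1A and KIF1B, at 1.05 ± 0.37, and KLC2, a light chain of the KIF5 motors, at 1.04 ± 0.41 (edgeR adjusted p 0.598 for both). Of 22 dynein and dynactin genes, 16 and 19 were above 0 in the same comparisons, with medians of 0.25 and 0.31. Of 21 spindle proteins that work with the mitotic kinesins, 19 were below 0 in each comparison, with medians of -1.79 and -1.41. ASPM, a spindle pole protein, had a fitted change of -2.62 ± 0.56 and NUSAP1, a microtubule bundler, of -4.94 ± 1.25 between the mechanoreceptor and nociceptor protocols (edgeR adjusted p 0.598 for both). DESeq2 called these and 5 more of the 21 in that comparison, BIRC5, ANLN, NDC80, NUF2 and BUB1B, beside 0.806% of all genes, and none in the proprioceptor comparison. All 10 proliferation markers were below 0 in both, with medians of -3.27 and -1.88. An unadjusted edgeR p under 0.05 was that of 9 of the 10 in the mechanoreceptor and 2 in the proprioceptor comparison, beside 8.18% and 6.19% of all genes. DESeq2 called 6 of the 10 in the first, MKI67, TOP2A, CDK1, CCNB2, CCNA2 and RRM2, and none in the second, beside 0.806% and 0.192% of all genes. Of the cilium partners, 10 motile cilium genes were tested with 5 above and 5 below 0 in each comparison, and of 14 primary cilium genes 6 and 7 were above 0. No gene of these lists passed edgeR's adjusted test in any comparison.

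Short transcripts carried much of the gene level for several axonal kinesins and for KIF9. Transcript names were taken from GENCODE v29 and covered 99.1% of the KIF1A level. KIF1A-204, a model with 15 exons and 1426 bases, held on average 80.6% of the KIF1A TPM of a library and 38.0% of its counts, and the 47-exon KIF1A-224 held 10.3% of the TPM and 32.1% of the counts. KIF21A-212, with 6 exons and 871 bases, held 65.3% of the KIF21A TPM and 18.9% of its counts. For KIF9 the 3-exon KIF9-205 held 64.7% of the TPM and 40.7% of the counts. KIF5B was assigned to KIF5B-201, its full-length form, in full.

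The order of levels between kinesins therefore depended on which transcripts were summed. Over transcripts whose coding part was at least 90% of the longest of that gene, KIF3A had a mean of 75.5 ± 27.7 TPM (SD over the 10 libraries), KIF21A 71.0 ± 19.0, KIF5B 66.0 ± 24.6, KIF5A 51.6 ± 32.6, KIF5C 40.1 ± 33.8, KIF3C 35.9 ± 16.3 and KIF1A 22.3 ± 9.70 TPM. KIF1A, first by gene level, was the seventh in this order of named transcripts. The named transcripts covered 38.1% of the gene level of KIF5A, 47.3% of KIF5C, 61.0% of KIF2A and 48.0% of KIF1B, so the full-length values of these 4 genes are lower limits of what the table assigned to such forms. KIF2A and KIF1B, at 12.7 and 15.0 TPM over named forms, could therefore also lie above KIF1A. The full-length KIF5C transcript was estimated at 11.8, 8.39, 20.7 and 8.69 TPM in the nociceptor, 69.5, 53.0 and 69.9 TPM in the mechanoreceptor and 0.111, 64.2 and 95.2 TPM in the proprioceptor libraries. Its nociceptor values lay below all mechanoreceptor values, unlike those of the whole gene. The named transcripts covered between 20.4% and 72.5% of the KIF5C level of a library. A difference in this form therefore cannot be told apart from a difference in how reads were divided with unnamed forms. No test was run on transcripts.

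Several kinesins overlap other genes, and the library kit does not mark strand, so reads from shared exons could not be told apart. The overlaps were taken between whole genes with their introns, and sharing of exons was not examined. KIF4A overlaps PDZD11 on the opposite strand by 425 bases, and PDZD11 had a mean of 221 ± 70.9 TPM. KIF20A touches BRD8 and CDC23 on the opposite strand, with means of 34.3 ± 10.8 and 54.1 ± 18.7 TPM, and KIF15 overlaps TMEM42 on its own strand, with a mean of 56.5 ± 20.6 TPM. KIF2A overlaps DIMT1 on the opposite strand, with a mean of 32.7 ± 9.19 TPM, and IPO11 on its own strand, with a mean of 17.6 ± 8.87 TPM. The low levels of KIF4A, KIF20A and KIF15 are therefore uncertain to the extent that such reads were assigned to them.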

How the data were processed

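The authors deposited estimated counts, given as whole numbers, and TPM per transcript and per gene, quantified with kallisto 0.50.1 on GRCh38.p14 per the submitters' processing notes. How transcripts were summed to genes is not given in the sources used here. Estimated counts from pseudoalignment divide reads among similar transcripts, an error the deposited values do not show. An entry with no gene name, between 0.733% and 1.66% of a library's counts and between 2.81% and 8.80% of its TPM, was left out. The TPM of the named genes were not rescaled.

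The rounded counts were filtered with filterByExpr, scaled by TMM and tested with edgeR 4.0.16 (quasi-likelihood, 1 mean per protocol, all 10 libraries, Benjamini-Hochberg over 16130 genes, threshold 0.05) under R 4.3.3. DESeq2 1.42.0, limma 3.58.1 on log2(TPM + 1) and log2(TPM + 0.1), RLE scaling, no filter, 2-protocol fits, a replicate block and leaving out each library were alternatives. On simulated data for the mechanoreceptor against the nociceptor protocol, with the estimated dispersion and 15925 genes, the edgeR test recovered 33 of 97 genes changed by 2 and 88 of 99 changed by 4 on the log2 scale. Levels are TPM, means over the 10 libraries carry the SD and changes the SE, and promoter letters come from RefSeq. Pairs of libraries of 1 protocol differed far beyond sampling noise (chi-square per degree of freedom at least 122.9).

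The members, roles and lists were chosen with earlier results of these data known. Besides the 10 genes of the rule, the text names kinesins by the 3 smallest p-values per comparison, an adjusted p under 0.05 in DESeq2 and the highest mean TPM per role. KIF17, KIF13A, KIF14, KIF3A and KIF1B, the overlap counts and the transcript results were added after their values were seen. Not every cell type marker's own value is reported here.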

Additional observations from a re-analysis of the deposited data

Results flagged for a closer look

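In the nociceptor group, the 1 group of 4, the extreme library of 3 of the 19 kinesins examined lay apart from the rest of its group by more than Dixon's 95% critical value. KIF1A was 428 TPM in nociceptor library 4, against 91.0 to 148 TPM in the other 3. KIF23 was 1.40 TPM in the same library, against 5.58 to 5.82 TPM in the others. KIF22 was 14.3 TPM in nociceptor library 1, against 23.8 to 25.7 TPM in the others. Chance flags about 1 in 20 groups, and the 19 genes share libraries, so they are not separate looks at the data.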

How the results depend on the processing

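The edgeR count of 0 genes and 0 kinesins past the threshold was the same in every comparison under the other edgeR and limma settings run and with each library left out (range 0 to 0). DESeq2 called 130 genes and 2 kinesins (KIF20A at -3.82 and KIFC1 at -3.16) between the mechanoreceptor and nociceptor protocols, 31 genes between the proprioceptor and nociceptor protocols, and 79 genes for any protocol difference, where the cause was not tested. Leaving out 1 library at a time, the mitotic median ran from -2.42 to -1.89 (mechanoreceptor) and -2.65 to -1.37 (proprioceptor) against the nociceptor protocol, and the axonal median from 0.35 to 1.02 and from 0.42 to 1.14. Deviations of same-numbered libraries correlated from -0.69 to 0.56 over 9 pairs, and those of other pairs from -0.63 to 0.83. Each deviation was taken from a mean of 3 or 4 libraries, so these values cannot show whether same-numbered libraries shared a batch. The library names run in sets by replicate number across the protocols, with nociceptor library 4 last, and the labels name no batch. With the replicate block the axonal median against the nociceptor protocol was 1.07 and 1.16, with no kinesin called. Nociceptor library 4 alone held its replicate number, so the block took it out of the comparisons. Unadjusted edgeR p was then under 0.05 for 18 and 17 kinesins, beside 14.8% and 12.2% of all genes. Between the proprioceptor and mechanoreceptor protocols, the mitotic median ran from -0.32 to 1.02 and the axonal from -0.13 to 0.19 without single libraries. Limma on log2(TPM + 0.1) moved the median of all genes to 0.15, -0.11 and -0.25 in the mechanoreceptor against nociceptor, proprioceptor against nociceptor and proprioceptor against mechanoreceptor comparisons, and in the last the mitotic median was -0.12 and the axonal -0.18. KIF22 changed sign between scales in both comparisons with the nociceptor protocol. Counts under 10 in a library limit KIF18B, KIF14 and KIF20A.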
